A study of Mus musculus with 6 samples.

Results

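Neurons of the mouse medial mammillary nucleus that carry the D2 dopamine receptor label were described here by the genes they express. The members were the 3 libraries whose genotype label is Drd2-positive (replicates 1, 2 and 3), out of 6 RNA sequencing libraries in all, and they were chosen by that label and not by any measured value. The other 3 libraries, replicates 6, 7 and 8, are labelled PV-positive and come from neurons marked through parvalbumin, a calcium-binding protein. All mice were male and the tissue label is brain. Slices of the medial mammillary nucleus were treated with papain, and fluorescent cells were drawn up with glass electrodes. The allele that labelled the cells, the age of the mice and the numbers of cells and mice behind each library were not given in the sources used here. Although the series calls the 3 libraries of each group biological replicates, it does not say whether each came from a separate mouse, so p-values measure only the spread between these libraries, which may be partly technical.

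The medial mammillary nucleus is a cell group at the back of the hypothalamus. It receives input from the hippocampal formation through the fornix and sends axons to the anterior thalamus through the mammillothalamic tract, and it is known for its part in memory and spatial navigation. Its principal neurons release glutamate. The D2 receptor is a G-protein-coupled receptor that acts through the inhibitory Gi and Go proteins, lowers cyclic AMP and opens G-protein-gated potassium channels in many neurons. It is best known from striatal neurons of the indirect pathway and from dopamine neurons, where it serves as an autoreceptor.

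Levels were given by the authors as FPKM, the number of fragments per kilobase of a gene for every 1e6 fragments, which puts genes of different length on 1 scale. Below, 3 values in a row belong to Drd2 replicates 1, 2 and 3 in that order, and a gene was counted as present when it reached 1 FPKM in all 3. Ranks were taken among 21914 nuclear protein-coding genes. The FPKM denominators of the Drd2 libraries, recovered from the whole-read steps of low values, were 33.7, 30.0 and 23.8 in units of 1e6 fragments, so 1 read in a gene of 1 kilobase was worth 0.0296 to 0.0420 FPKM.

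The 5 marker genes of the population lie at these places in mm10 (GENCODE M21). Drd2, the receptor itself, is at chr9:49340627-49408177 on the plus strand. Calb1, the calcium buffer calbindin, is at chr4:15881264-15908064 (plus). Hpcal1, a neuronal calcium sensor, is at chr12:17690856-17791933 (plus). Slc17a6, the vesicular glutamate transporter VGLUT2, is at chr7:51622006-51671119 (plus). Foxb1, a forkhead transcription factor of the developing mammillary body, is at chr9:69757710-69760940 (minus). The RefSeq promoter table (GRCm38.p6) had an entry for 3 of these 5. Those of Drd2, Hpcal1 and Slc17a6 are printed because they precede the genes that define the population, and that of Fos because Fos was the most abundant activity-regulated gene. Each line is the 250 bases before the start annotated in that RefSeq table, 5′ to 3′ on the strand of the gene. For Drd2, Hpcal1 and Slc17a6 the window ends upstream of the GENCODE M21 start given above, because the 2 annotations place the start differently. Capitals mark 3 motifs searched on both strands, the GC box GGGCGG, the TATA box TATAAA and the cyclic AMP response half-site TGACG. Both the genes and the motifs were chosen after values were seen.

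Drd2: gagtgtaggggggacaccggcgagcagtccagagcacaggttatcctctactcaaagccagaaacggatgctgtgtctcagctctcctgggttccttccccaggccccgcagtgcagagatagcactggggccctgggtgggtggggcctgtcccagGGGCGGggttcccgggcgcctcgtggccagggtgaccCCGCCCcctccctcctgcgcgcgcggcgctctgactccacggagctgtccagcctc
Hpcal1: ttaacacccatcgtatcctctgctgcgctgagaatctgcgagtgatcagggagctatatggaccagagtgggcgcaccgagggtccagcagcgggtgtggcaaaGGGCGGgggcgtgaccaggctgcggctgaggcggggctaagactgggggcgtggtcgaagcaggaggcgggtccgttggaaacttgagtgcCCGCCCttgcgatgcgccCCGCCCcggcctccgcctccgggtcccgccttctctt
Slc17a6: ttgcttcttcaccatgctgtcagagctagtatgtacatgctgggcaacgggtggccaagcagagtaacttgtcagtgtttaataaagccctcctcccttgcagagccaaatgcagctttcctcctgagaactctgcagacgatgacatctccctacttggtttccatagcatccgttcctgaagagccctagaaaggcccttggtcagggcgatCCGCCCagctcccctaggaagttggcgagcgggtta
Fos: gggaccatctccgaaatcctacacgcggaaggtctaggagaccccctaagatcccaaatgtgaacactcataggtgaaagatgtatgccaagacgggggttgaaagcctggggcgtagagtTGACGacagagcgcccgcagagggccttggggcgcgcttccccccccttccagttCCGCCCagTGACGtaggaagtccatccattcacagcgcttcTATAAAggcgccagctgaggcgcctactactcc

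These windows lie at chr9:49340153-49340402, chr12:17690559-17690808, chr7:51621580-51621829 and chr12:85473640-85473889, all on the plus strand, and the one for Slc17a6 belongs to the first of its 2 starts in the table. The Drd2 window held 2 GC boxes and no TATA box. There were 3 GC boxes in the Hpcal1 window and 1 in the Slc17a6 window, again with no TATA box. The Fos window held 1 GC box, 1 TATA box and 2 half-sites. Among 32851 promoter windows of the same length, 32.7% held a GC box, 12.4% a TATA box and 17.8% a half-site. The GC content was 68.8% for Drd2, 66.8% for Hpcal1, 53.2% for Slc17a6 and 58.4% for Fos, against a median of 52.4% over all windows.

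One library stood apart and bears on many values below. Drd2 replicate 3 held the least Drd2 of its group and the most of 14 of 16 microglial markers. The summed level of the microglial list was 24.5, 147 and 4161 FPKM in the Drd2 libraries. In replicate 1, 9 of the 16 markers were listed at 0, among them P2ry12 and Csf1r, and Cx3cr1 was at 0.00658 FPKM. In replicate 3 the same 3 markers were at 18.6, 33.4 and 36.1 FPKM. The PV libraries had sums of 1885, 1205 and 555 FPKM, so the Drd2 libraries lay on both sides of the PV range (exact permutation p = 1, 2-sided, 3 against 3, smallest possible p = 0.1). Myelin markers ran differently, with an oligodendrocyte sum of 702, 2138 and 121 FPKM, and 6 of its 15 genes were listed at 0 in replicate 3. Astrocyte markers summed to 213, 553 and 708 FPKM and were led in each library by Aldoc. Vascular markers stayed between 0 and 4.02 FPKM in sum, ependymal markers between 0.121 and 10.1, oligodendrocyte precursor markers between 1.67 and 4.35, and blood markers between 0 and 12.1. The part of these other cells in the values below was not tested, apart from giving counts with each Drd2 library left out. The PV libraries also differed in composition: mitochondrial genes made up 23.0%, 31.3% and 9.62% of their FPKM total, against 3.74%, 5.20% and 3.76% in the Drd2 libraries. PV replicate 7 had the fewest genes reaching 1 FPKM, 8610, and the Drd2 libraries had 11110, 12233 and 12212. The part of this in the comparisons with PV below was not tested. In sums over many cells, fewer cells of a type and less RNA per cell cannot be told apart.

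**Figure D1:**
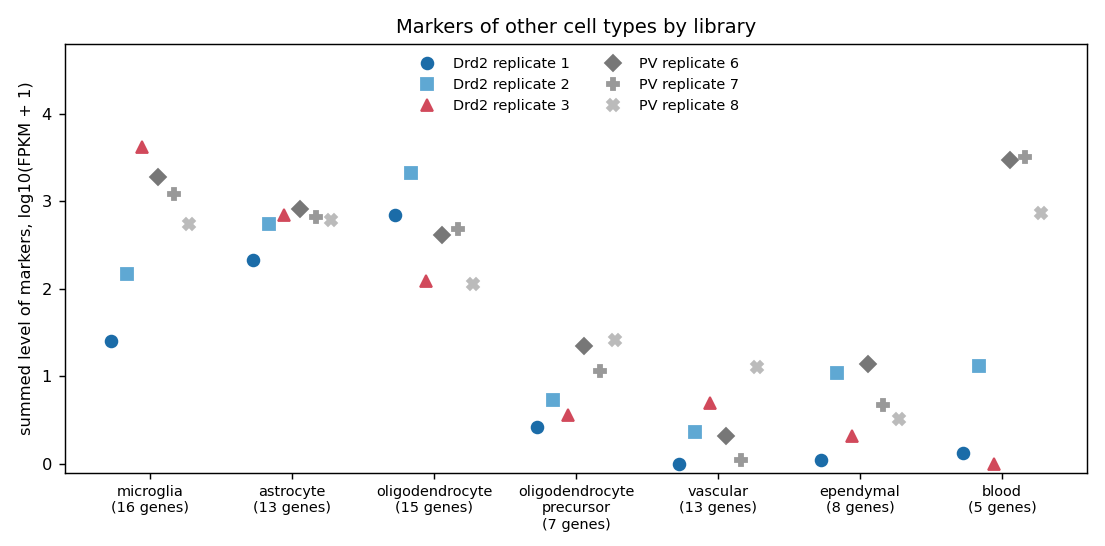
Summed FPKM of marker genes of 7 other cell types on a log10(FPKM + 1) axis, 1 point per library, with the number of marker genes under each name. Drd2 replicate 3 (red triangle) has the highest microglial sum (4161 FPKM), Drd2 replicate 2 the highest oligodendrocyte sum (2138 FPKM), and the blood sums of all 3 Drd2 libraries lie at or under 12.1 FPKM against 743 or more in the PV libraries.

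All 5 markers were present. Hpcal1 was the most abundant of them in each library, at 263, 308 and 259.8 FPKM (277 ± 26.9, SD, n = 3), and ranked 214, 135 and 201. Calb1 was at 262, 223 and 181 FPKM (222 ± 40.4, SD, n = 3). The levels of Slc17a6 were 108, 123 and 144 FPKM (125 ± 18.1, SD, n = 3). These 3 genes varied by less than 1.5 times between libraries. Foxb1 was more spread, at 76.4, 52.6 and 26.4 FPKM. Drd2 itself was the least abundant of the markers, with 42.7, 55.0 and 7.74 FPKM and ranks of 1401, 1072 and 5062. In the PV libraries Drd2 was at 0.0132 FPKM in replicate 6 and listed at 0 in replicates 7 and 8, so the lowest Drd2 library was still above every PV library. Of the 5, Slc17a6 alone overlapped between the groups, with 114, 132 and 144 FPKM in the PV libraries; across all 11478 genes tested, 13.1% lay higher in every Drd2 library than in every PV library. The markers were chosen with such values known, and nothing is read from that count.

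General neuronal genes were strong. All 15 pan-neuronal genes on the list were present, and 13 reached 10 FPKM in every library. Stmn3, a microtubule regulator of neurons, was at 2333, 1864 and 1527 FPKM. Uchl1, a neuronal ubiquitin hydrolase, was at 739.5, 675 and 698 FPKM. Tubb3, the neuronal beta tubulin, was at 510.0, 563 and 428 FPKM. Snap25, the vesicle fusion protein, was spread more widely, at 202, 331 and 503 FPKM, highest in replicate 3. Rbfox3, which encodes the nuclear marker NeuN, was at 35.7, 63.0 and 25.5 FPKM.

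Of 35 listed transcription factors of the mammillary body and its surroundings, 12 were present. Foxb1 led the list in replicates 1 and 2. Lhx1, a LIM homeobox factor of the mammillary body, was at 25.2, 16.1 and 14.2 FPKM. Its relative Lhx5 was at 15.2, 14.8 and 5.38 FPKM. Tshz2, a zinc-finger homeobox factor, was at 22.2, 12.1 and 12 FPKM, although 65.2% of its exon bases overlap Gm26883 on the opposite strand, and reads of overlapping genes cannot be told apart here because the strand setting was not given in the sources used here. Smaller overlaps of this kind touch Qdpr (18.6% of exon bases), Uchl1 (18.1%), Hcn3 (17.1%), Penk (14.3%) and Foxb1 (14.0%). Uncx, a homeobox factor, was at 9.5, 8.59 and 4.39 FPKM. Foxb1 and these 4 genes were lowest in replicate 3.

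Lower in the order, Nkx2-1, a general factor of the ventral hypothalamus, was at 7.53, 6.14 and 2.05 FPKM. Nkx2-4, its relative, was at 4.62, 9.66 and 1.48 FPKM, while all 3 PV libraries listed it at 0. Nhlh2, a helix-loop-helix factor of hypothalamic neurons, was at 2.94, 5.34 and 5.62 FPKM. Sim1 and Sim2, which are required when the mammillothalamic axons form, did not reach the level for presence. Sim1 was at 0.0103, 1.93 and 0.647 FPKM and Sim2 at 2.00, 0.110 and 0 FPKM. Lmx1a, a marker of the neighbouring posterior hypothalamus, was at or under 0.148 FPKM in every library. A second list of 20 regulators of cortex, striatum and other forebrain regions had no member at 1 FPKM in any Drd2 library.

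**Figure D2:**
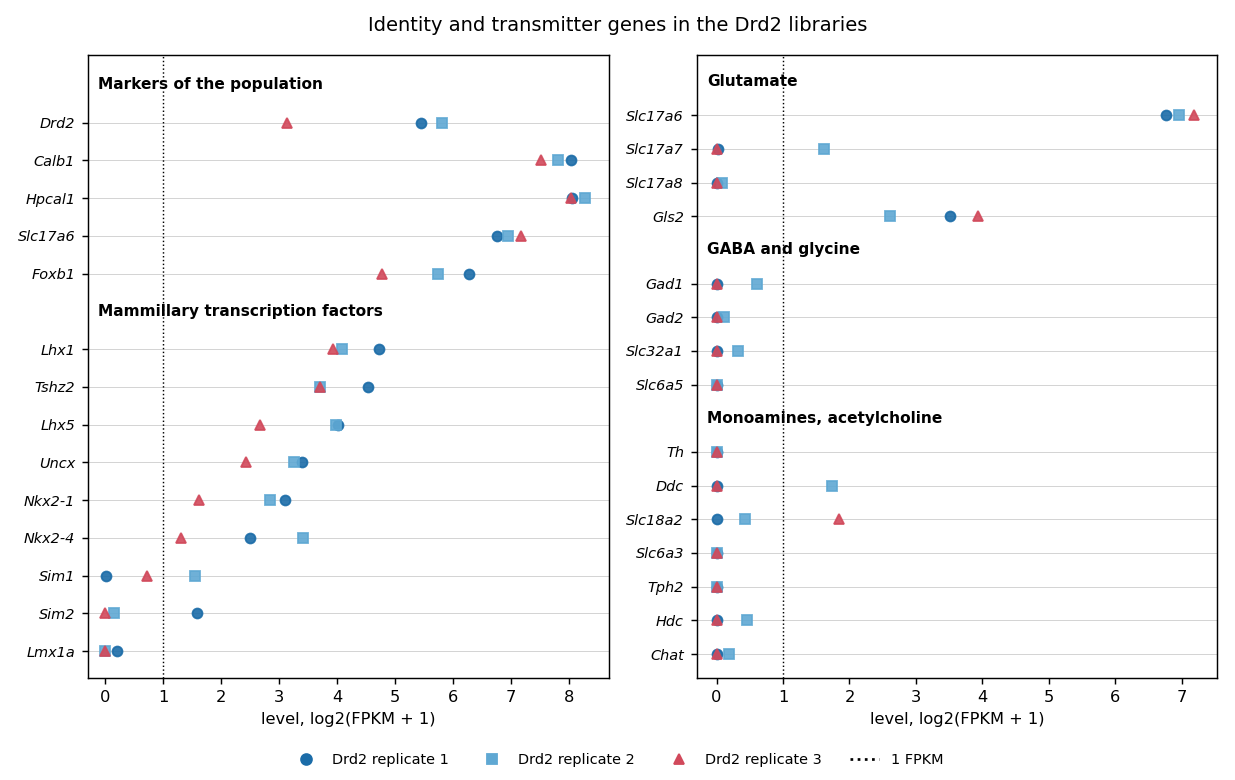
Levels of marker, transcription factor and transmitter genes on the log2(FPKM + 1) scale, 1 point per Drd2 library, with a dotted line at 1 FPKM. Slc17a6 lies at 108 to 144 FPKM, while Gad1, Gad2, Slc32a1, Th, Hdc and Chat lie under the line in each library, and Drd2, Foxb1 and most of the transcription factors are lowest in replicate 3 (red triangle).

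Genes of glutamate transmission were well represented. Of 11 genes for glutamate synthesis and transport, 9 were present. Got1, a transaminase that makes glutamate, was at 214, 203 and 235 FPKM, the highest of the list in every library. Glud1, which interconverts glutamate and oxoglutarate, was at 30.0, 33.5 and 35.4 FPKM. Gls2, which makes glutamate from glutamine, was at 10.4, 5.13 and 14.2 FPKM. The glutamine transporters Slc38a1 and Slc38a2 were close together, with means of 18.9 ± 1.88 and 18.0 ± 2.19 FPKM (SD, n = 3). Slc17a6 was the main vesicular transporter by a wide margin. Slc17a7, which encodes VGLUT1, was at 0.0110, 2.07 and 0 FPKM, and Slc17a8, which encodes VGLUT3, was at most 0.0565 FPKM.

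Genes that define other transmitters were near or at 0. Gad1 and Gad2, the enzymes that make GABA, were listed at 0 in replicates 1 and 3 and were at 0.523 and 0.0850 FPKM in replicate 2. Those values rest on 120 and 15 recovered reads. The vesicular GABA transporter Slc32a1 was at 0, 0.250 and 0 FPKM. Th, which makes the dopamine precursor, was listed at 0 in all 3 libraries, where a count of 0 allows up to 0.0376, 0.0423 and 0.0532 FPKM (3 reads, counting error only). The dopamine transporter Slc6a3, the serotonin enzyme Tph2 and the glycine transporter Slc6a5 were also listed at 0 in all 3. The histamine enzyme Hdc and the acetylcholine enzyme Chat reached 0.375 and 0.142 FPKM in replicate 2 and were listed at 0 elsewhere. Replicate 2 was thus the Drd2 library with reads for each of these genes that had any. Abat, which degrades GABA, was present at 11.7, 16.0 and 28.9 FPKM.

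Of 20 genes for monoamines and acetylcholine, 5 were present, and none of the 5 defines a transmitter class. Among them were Qdpr and Pts of tetrahydrobiopterin metabolism and the monoamine oxidases Maoa and Maob. Qdpr was at 196, 283 and 123 FPKM. Slc18a2, the vesicular monoamine transporter, was at 0, 0.344 and 2.58 FPKM and so reached 1 FPKM in replicate 3 alone.

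A few peptide precursors were abundant. Of 36, 7 were present, 5 of them at 10 FPKM or more in all 3 libraries, and 20 were under 1 FPKM in every Drd2 library. The number present was 9, 8 and 8 without replicate 1, 2 or 3. Cartpt, the precursor of the CART peptides, was at 939, 422 and 498 FPKM and ranked 23, 85 and 69. Cck, the cholecystokinin precursor, was at 589, 279 and 511 FPKM and ranked 51, 161 and 63. Adcyap1, the precursor of PACAP, was at 65.3, 40.5 and 54.6 FPKM. These 3 precursors were high in each library, and replicate 2 was the lowest for all 3.

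Other precursors differed by more. Npy, the neuropeptide Y precursor, was at 44.4, 134 and 1870.2 FPKM and ranked 1359, 428 and 4, with most of it in replicate 3. In the PV libraries Npy was at 439, 753 and 583 FPKM. Pnoc, the nociceptin precursor, ran the other way at 193, 125 and 10.3 FPKM. Penk, the enkephalin precursor, was at 85.2 and 37.7 FPKM in replicates 1 and 2 and was listed at 0 in replicate 3. Nmu, the neuromedin U precursor, was at 34.5, 5.47 and 9.02 FPKM, and every PV library listed it at 0. Nts, the neurotensin precursor, was at 0.0475, 4.35 and 67.0 FPKM, and Tac1, the substance P precursor, at 0, 1.26 and 28.7 FPKM. Npy, Nts and Tac1 were thus highest, and Pnoc and Penk lowest, in the library that also held the most microglial RNA. Sst and Trh, the somatostatin and thyrotropin-releasing hormone precursors, were at 14.1 and 13.9 FPKM in replicate 2 and listed at 0 in the others. On a list of 16 markers of neighbouring hypothalamic neurons, which shares Npy with the peptide list, 14, 7 and 12 genes were listed at 0. Its sum was 51.6, 171 and 1877 FPKM, of which Npy made up 86.0%, 78.3% and 99.6%. Pomc, a marker of arcuate neurons on that list, was at 7.22, 6.12 and 3.88 FPKM. The part of neighbouring cells in the peptide values was not tested beyond these sums.

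All 11 genes that process and store peptides were present, and 9 reached 10 FPKM in every library. The other two were the granin-like precursor Vgf, at 4.79, 9.26 and 2.99 FPKM, and the convertase Pcsk1, at most 4.51 FPKM. Cpe, the carboxypeptidase that trims peptides, was at 567, 632 and 751 FPKM. Pcsk1n, an inhibitor of a prohormone convertase, was at 866, 757 and 409.7 FPKM. Scg2 and Chgb, granin proteins of dense-core vesicles, were at 269 ± 43.1 and 215 ± 43.1 FPKM (SD, n = 3). Of 33 genes of vesicle release, 26 were present and 19 reached 10 FPKM in all 3. Rab3a, the vesicle GTPase, was the highest at 1011, 808 and 657 FPKM. Its relative Rab3b was at 50.2, 31.7 and 107 FPKM. Syt1, the calcium sensor of fast release, was at 127, 107 and 94.1 FPKM, and Syt5, a synaptotagmin, at 192, 89.2 and 65.1 FPKM.

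**Figure D3:**
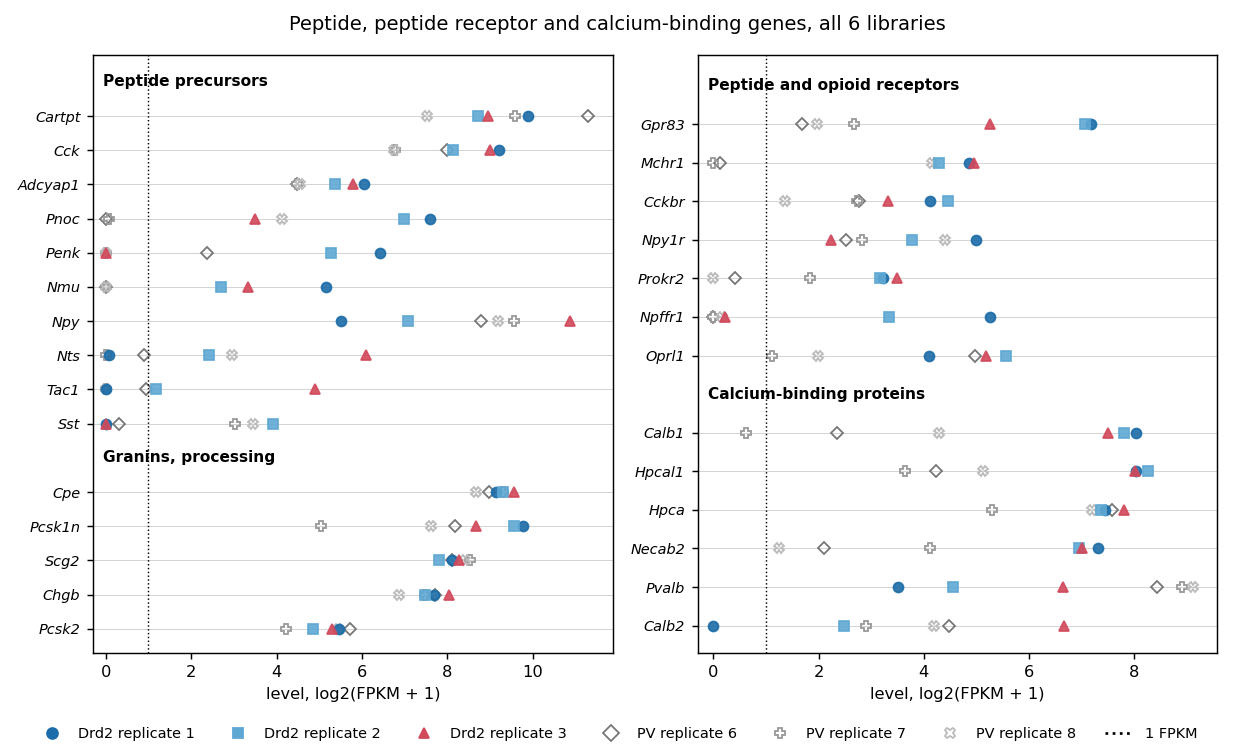
Levels of peptide precursor, peptide-processing, peptide receptor and calcium-binding genes on the log2(FPKM + 1) scale, filled points for the Drd2 libraries and open points for the PV libraries. Npy, Nts, Tac1, Pvalb and Calb2 are highest in Drd2 replicate 3 among the Drd2 libraries, Penk is at 0 there, and Calb1, Hpcal1, Necab2 and Gpr83 lie above all PV libraries in each Drd2 library.

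Across transmitters, channels and receptors together, 142 of 387 listed genes were present (36.7%). The number was 159, 149 and 161 when replicate 1, 2 or 3 was left out. By class, 34 of 86 transmitter and peptide genes, 52 of 115 channel genes and 56 of 186 receptor genes were present. At 10 FPKM in all 3 libraries the counts were 24, 9 and 19, so few channel genes were abundant. In all, 234 of the 387 reached 1 FPKM in at least 1 library and 153 in none. Members at 1 FPKM or more in replicate 1, 2 or 3 alone numbered 15, 24 and 10.

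Among voltage-gated sodium channel genes, 8 of 14 were present. Their pore-forming subunits were led by Scn1a, which encodes Nav1.1, at 27.6, 17.2 and 23.3 FPKM. Scn2a, which encodes Nav1.2, was at 15.2, 11.1 and 11.9 FPKM, and Scn8a, which encodes Nav1.6, was at 6.95, 10.7 and 10.9 FPKM. The order Scn1a, Scn2a, Scn8a held in each library. Nalcn, the sodium leak channel, was at 3.58, 2.21 and 13.5 FPKM, highest in replicate 3.

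Calcium channel genes were mostly present, 13 of 18, but low. The beta subunits Cacnb3 and Cacnb4 were the highest, at 21.6, 10.8 and 11.9 FPKM and at 16.6, 14.3 and 11.3 FPKM, and 16.0% of the exon bases of Cacnb4 overlap an opposite-strand gene. All 3 T-type pore subunits, which open near the resting potential, were present. Cacna1h was at 3.52, 6.00 and 5.96 FPKM, Cacna1g at 2.13, 4.72 and 2.55 FPKM and Cacna1i at 4, 4.02 and 1.16 FPKM. The order of these 3 changed between libraries. The P/Q-type subunit Cacna1a was at 2.97 ± 0.299 FPKM (SD, n = 3), and the N-type subunit Cacna1b was at 2.06, 3.74 and 7.77 FPKM. The HCN genes, which carry the hyperpolarization-activated current, were led by Hcn3 in each library, at 9.87, 20.2 and 1.96 FPKM. In replicate 3, Hcn4 was close behind at 1.73 FPKM, so that order carries little weight there.

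The highest of the listed potassium channel genes in each library was an auxiliary subunit. Kcnip4, a calcium-binding partner of Kv4 channels, was at 75.7, 56.6 and 85.7 FPKM, and Dpp6, another Kv4 partner, at 31.8, 28.2 and 15.2 FPKM. The Kv4 pore subunit Kcnd2 was far lower, at 6.79, 3.71 and 0.708 FPKM, and Kcnd3 was at 1.48, 2.14 and 0 FPKM. Of 9 genes on the Kv4 list, 4 were present, and 4, 4 and 7 without replicate 1, 2 or 3. Kcnk3, a tandem-pore leak channel, was at 33.2, 27.5 and 16.7 FPKM and led its list in each library. Kcnj9, a subunit of the G-protein-gated channels on which Gi-coupled receptors act, was at 26.8, 14.8 and 19.4 FPKM. Its partner Kcnj3 was at 8.95, 9.81 and 3.43 FPKM, with 31.1% of its exon bases shared with an opposite-strand gene, and Kcnj6 was at 0.124, 4.05 and 4.35 FPKM. Kcnj9 was therefore the main member in every library, and the second member was not the same in each.

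Lower potassium channels were more varied. Kcnc1, the fast Kv3.1 channel, was at 7.14, 17.4 and 5.85 FPKM. Kcnh2, which carries the ERG current, was at 9.15 ± 2.34 FPKM (SD, n = 3). The sodium-activated Kcnt1 was at 13.3, 4.52 and 8.60 FPKM, and the calcium-activated Kcnma1 was at 8.57, 4.91 and 4.90 FPKM. Kcnn3, a small-conductance calcium-activated channel, was at 1.51, 2.61 and 3.32 FPKM. Kv1 pore subunits were low in all 3 libraries, with Kcna1 at 3.00, 1.78 and 3.91 FPKM and Kcna2 at 3.33, 1.10 and 6.12 FPKM. In the PV libraries Kcna2 was at 27.9, 22.6 and 50.7 FPKM, with no overlap and a log2 difference of 3.03 ± 0.63 (SE) that did not pass (limma adjusted p = 0.0855).

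Ionotropic glutamate receptors were present in all their main kinds. Of 19 AMPA, kainate and auxiliary genes, 11 were present. The auxiliary protein Cnih2, which slows AMPA receptor gating, was at 246, 199.8 and 95.5 FPKM and made up 74.0%, 65.6% and 40.4% of the list. Gria2, the subunit that keeps AMPA receptors impermeable to calcium, was at 19.4, 25.7 and 48.4 FPKM. Gria1 was nearly even at 15.1, 15.3 and 17.5 FPKM, and Gria4 was at 6.86, 3.90 and 3.73 FPKM. Gria3 was at most 0.172 FPKM in the Drd2 libraries, while the PV libraries had 4.14, 4.09 and 14.0 FPKM, a log2 difference of 2.79 ± 0.66 (SE; limma adjusted p = 0.125). Gria2 was thus the main pore subunit in each library, and Gria3 the only one of the 4 not present.

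NMDA receptor genes present were Grin1, Grin2a, Grin2b and Grin3a, 4 of 7. Grin1, the obligatory subunit, was at 9.27, 7.78 and 12.4 FPKM. Grin2b was at 11, 9.28 and 4.53 FPKM and Grin2a at 1.85, 2.78 and 2.15 FPKM, so Grin2b was above Grin2a in each library. Grin3a, a subunit that lowers calcium flow, led the list in replicates 1 and 2 and was low in replicate 3, at 16.5, 10.5 and 1.24 FPKM. Grin2c and Grin2d stayed under 1 FPKM. Among metabotropic receptors, Grm2, a Gi-coupled receptor often found on terminals, was the highest at 75.7, 61.1 and 93.2 FPKM (76.6 ± 16.1, SD, n = 3). Grm7, also Gi-coupled, was at 17.6, 25.6 and 73.7 FPKM. The Gq-coupled Grm5 was lower, at 3.67, 2.41 and 0.561 FPKM.

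GABA receptor genes were the fullest receptor list, with 12 of 17 present and 7 at 10 FPKM or more in all 3 libraries. Gabra5, an alpha subunit of extrasynaptic receptors, was at 34.9, 13.7 and 27.4 FPKM. The even members were Gabrb1, at 19.0 ± 1.5 FPKM, and Gabra2, at 17.7 ± 3.52 FPKM (SD, n = 3). Gabrd, the delta subunit, was at 0, 0.904 and 0 FPKM. Both subunits of the GABA-B receptor were present, Gabbr1 at 34.9, 28.9 and 17.3 FPKM and Gabbr2 at 17.8, 16.8 and 8.95 FPKM. The glycine receptor list held Glrb, the beta subunit that needs an alpha partner, at 19.4, 24.4 and 62.4 FPKM. The alpha subunits Glra1, Glra2 and Glra3 were at most 0.250 FPKM, and the remaining one, Glra4, was at 0, 1.24 and 0 FPKM.

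**Figure D4:**
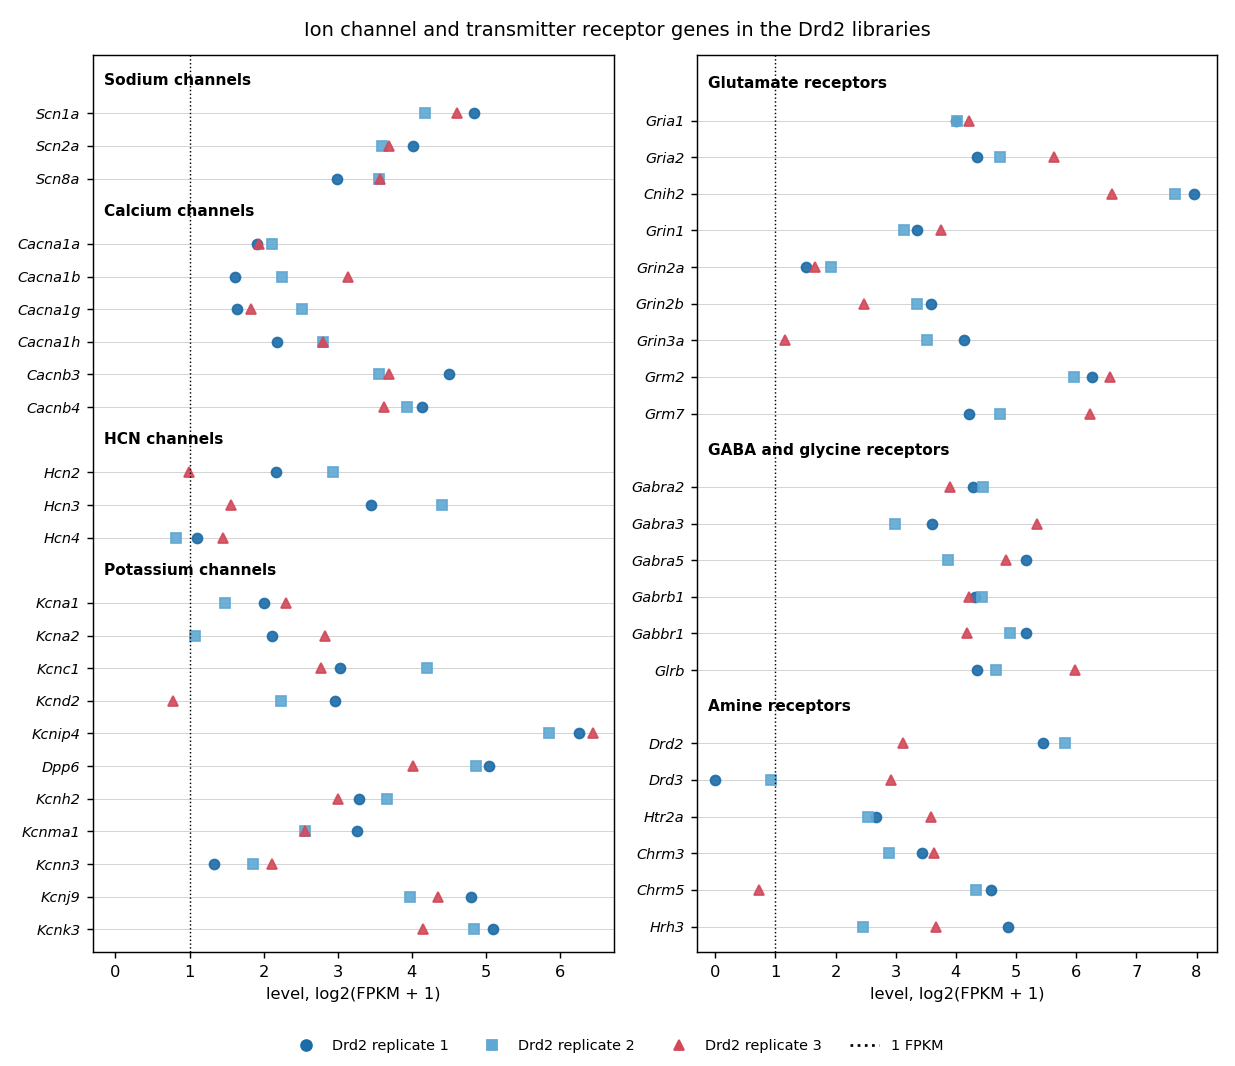
Levels of ion channel and transmitter receptor genes on the log2(FPKM + 1) scale, 1 point per Drd2 library, with a dotted line at 1 FPKM. Cnih2 (95.5 FPKM or more) stands above the pore-forming AMPA subunits, and Hcn3, Grin3a, Chrm5 and Drd2 are lowest in replicate 3 (red triangle).

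Drd2 was the only dopamine receptor present. Drd1 (D1), Drd4 (D4) and Drd5 (D5) were listed at 0 in all 3 libraries. Drd3, the D3 receptor, was at 0, 0.895 and 6.57 FPKM, resting on 46 reads in replicate 2 and 268 in replicate 3. Drd2 made up all of the summed level of the list in replicate 1, 98.4% in replicate 2 and 54.1% in replicate 3, so the share was smallest where Drd2 was lowest and Drd3 highest.

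Other receptors for small transmitters were few. Of 14 acetylcholine receptor genes, Chrm3 and Chrnb2 were present. Chrm3, a Gq-coupled muscarinic receptor, was at 9.79, 6.43 and 11.4 FPKM, against 0.344 FPKM or less in each PV library (limma adjusted p = 0.0720). Chrm5, known from dopamine neurons, was at 22.9, 19.1 and 0.656 FPKM, and so was high in 2 libraries. Htr2a, a Gq-coupled serotonin receptor, was the only one of 14 serotonin receptor genes present, at 5.40, 4.84 and 11 FPKM. Hrh3, the Gi-coupled histamine receptor, was the only one of 13 adrenergic and histamine receptor genes present, at 28.1, 4.50 and 11.7 FPKM. None of 12 purine and cannabinoid receptor genes was present, and Cnr1 was at 1.09, 0.362 and 0 FPKM. Of the opioid receptors, Oprl1, the nociceptin receptor, was at 16.1, 46.4 and 35.3 FPKM, and Oprm1, the mu receptor, at 1.48, 9.48 and 9.74 FPKM. Oprl1 thus stood beside its ligand gene Pnoc in each library, although the levels of the pair were not ordered alike.

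Of 47 neuropeptide receptor genes, 8 were present, and 8, 9 and 13 without replicate 1, 2 or 3. Gpr83, a G-protein-coupled receptor of hypothalamic neurons, was at 144, 134 and 37.4 FPKM. Mchr1, the receptor for melanin-concentrating hormone, was at 28.3, 18.5 and 30.3 FPKM (25.7 ± 6.29, SD, n = 3). Cckbr, a cholecystokinin receptor, was at 16.4, 21.2 and 9.04 FPKM in libraries that all held much of its ligand gene Cck. Prokr2, a prokineticin receptor, was even at 8.39, 8.05 and 10.3 FPKM. Less even was Npy1r, a neuropeptide Y receptor, at 30.9, 12.8 and 3.73 FPKM. Adcyap1r1, the PACAP receptor, was at 5.47 ± 0.932 FPKM (SD, n = 3). Ntsr2, at 25.2, 98.4 and 42.1 FPKM, is on the astrocyte list too, and the astrocyte sums were 213, 553 and 708 FPKM. Npffr1 and Glp1r, receptors for neuropeptide FF and GLP-1, reached 1 FPKM in replicates 1 and 2, at 37.6 and 9.17 FPKM and at 7.33 and 18.6 FPKM. In replicate 3 they were at 0.169 and 0.00722 FPKM. Among hormone and growth factor receptors, Rxrg, a retinoid X receptor, was at 124, 19.8 and 19.0 FPKM, and Thra, a thyroid hormone receptor, at 24.1, 26.3 and 12.3 FPKM.

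Signalling genes around the D2 receptor were broadly present, 16 of 23 on the list, and 17, 16 and 19 without replicate 1, 2 or 3. Gnao1, the Go alpha subunit, was at 30.5 ± 6.16 FPKM (SD, n = 3), and Gnai2, a Gi alpha subunit, at 25.6, 49.8 and 81.9 FPKM. Gnai2 followed the order of the microglial sums. The adenylyl cyclase Adcy2 was at 6.34, 14.2 and 18.1 FPKM, and Adcy5, the main striatal cyclase, at 4.07, 4.76 and 0.134 FPKM. Of 11 genes that accompany Drd2 in striatal neurons, Rgs9 and Gnal were present, and 3, 3 and 4 genes without replicate 1, 2 or 3. Penk, given above, led this list in replicates 1 and 2 with 80.4% and 66.5% of its summed level. In replicate 3 it was led by Gpr52, an orphan receptor, which was at 1.12, 0.488 and 12 FPKM. Adora2a and Sp9 were listed at 0 in all 3 libraries, Six3 was at most 0.0673 FPKM and Gpr6 was at 0, 0 and 1.79 FPKM. Ppp1r1b, which encodes DARPP-32, was at 0, 2.40 and 3.98 FPKM. Among gamma subunits, Gng3 was at 933, 849 and 728 FPKM, with 24.2% of its exon bases on the opposite strand of Bscl2. Gng4, another gamma subunit, was even at 24.5 ± 2.59 FPKM (SD, n = 3). Rgs4, a regulator that shortens Gi and Gq signals, was at 294, 265 and 174 FPKM.

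Calcium-binding genes were a strong group, with 16 of 20 present and 14 at 10 FPKM or more in all 3. Calm2, a calmodulin gene, was the most abundant nuclear protein-coding gene by geometric mean, at 2855, 2000.4 and 2572 FPKM. The calmodulin genes are similar in sequence, so how reads divide among them is uncertain. Hpca, a relative of Hpcal1, was at 174, 165 and 225 FPKM. Necab2, another protein that binds calcium, was at 159, 123 and 128 FPKM. Pvalb, the marker of the other group, was at 10.4, 22.5 and 99.5 FPKM, and Calb2, calretinin, at 0, 4.57 and 101 FPKM. Both were highest in replicate 3, and the PV libraries had 349, 482 and 563 FPKM of Pvalb.

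Activity-regulated genes were high and varied. Of 20 immediate-early genes, 13 were present. Replicate 2 had the highest level of 10 members. Fos, a transcription factor induced by activity and by stress, was at 609.9, 1009.5 and 155 FPKM and ranked 49, 16 and 379. Dusp1, a phosphatase, was at 40.1, 221 and 112 FPKM, and Jun was at 36.0, 86.6 and 145 FPKM. Arc, a synaptic gene, was at 6.18, 59.1 and 54.9 FPKM, and Atf3, a stress-induced factor, was at 1.13, 74.9 and 25.1 FPKM. Npas4, which responds chiefly to neuronal activity, was lower, at 4.69, 14.8 and 5.10 FPKM. The PV libraries had 96.5, 1.78 and 119 FPKM of Fos, below each Drd2 library (log2 difference -3.85 ± 1.30, SE, limma adjusted p = 0.250).

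The abundance ranking was led by general neuronal and metabolic genes. After Calm2, the next by geometric mean were Ubb, Stmn3, Gapdh, Aldoa, Rtl8c, Cox8a, Stmn1, Bex2, Ckb, Cox6a1, Cst3, Tuba1a, Tubb4a and Selenow. All but Cst3 were within 2-fold between libraries. Ckb, brain creatine kinase, was at 1168, 1122 and 1185 FPKM. Cst3, cystatin C, was at 505, 1090.0 and 2625 FPKM, highest in replicate 3. The 100 highest nuclear protein-coding genes made up 25.4%, 24.4% and 24.4% of the summed FPKM of all nuclear protein-coding genes. Of the top 100, 69 genes were shared by all 3 libraries, and the pairs shared 81 (replicates 1 and 2), 73 (1 and 3) and 77 (2 and 3).

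How far the libraries agreed depended on the level. Of 15822 genes at 1 FPKM or more in any Drd2 library, 8423 were in all 3 (53.2%), 2887 in 2 and 4512 in 1. Those in 1 library numbered 964, 1629 and 1919. Among nuclear protein-coding genes, 7733 of 12011 were in all 3 (64.4%). The median SD of log2(FPKM + 1) over the 3 libraries was 0.82 for genes with a mean of 1 to 5 FPKM (4456 genes), 0.58 at 5 to 20 FPKM (3846 genes), 0.40 at 20 to 100 FPKM (1921 genes), 0.27 at 100 to 500 FPKM (538 genes) and 0.25 above that (64 genes). The share present in all 3 was 39.9% in the lowest of these bands and 100% in the highest. Across the 15822 genes, which share libraries and are not independent replicates, Pearson's r of log2(FPKM + 1) was 0.815 for replicates 1 and 2, 0.740 for 1 and 3 and 0.727 for 2 and 3. Spearman's rho was 0.716, 0.639 and 0.618. Over 1226 genes with a mean of at least 50 FPKM, r was 0.885, 0.513 and 0.600 for the same pairs, while 91.4%, 85.2% and 89.0% of these genes were within 2-fold.

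**Figure D5:**
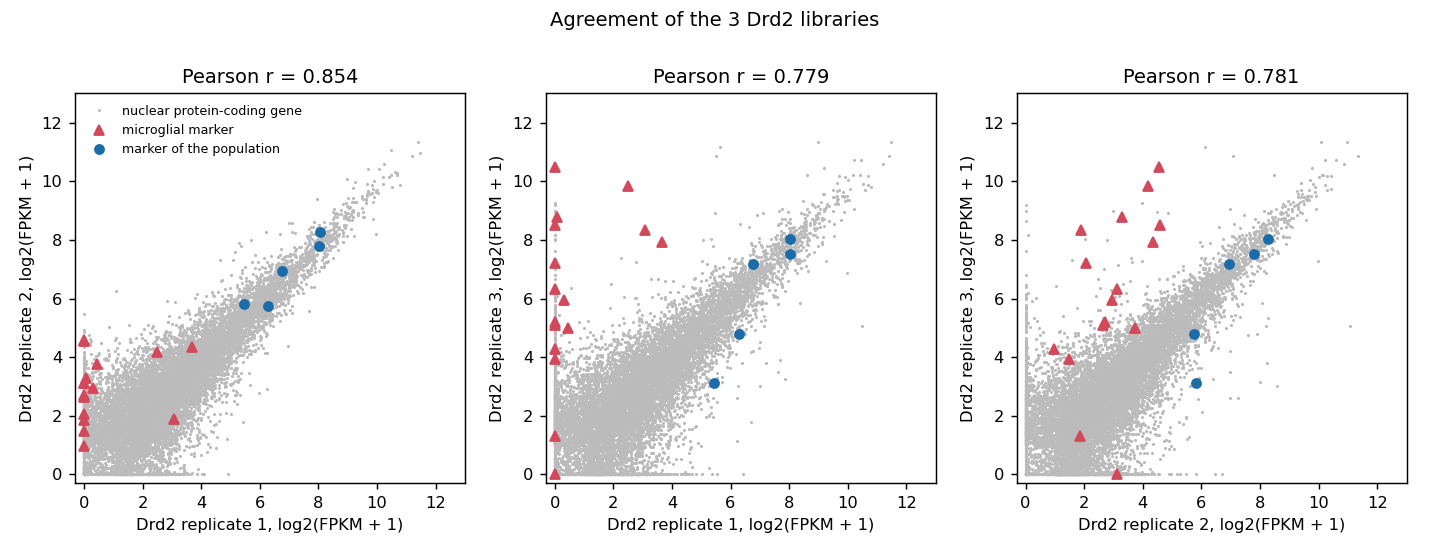
Level of each nuclear protein-coding gene (grey) in 1 Drd2 library against another, log2(FPKM + 1) on both axes, with the 5 markers of the population in blue and 16 microglial markers in red. Pearson's r is 0.854 for replicates 1 and 2, 0.779 for 1 and 3 and 0.781 for 2 and 3. The microglial markers leave the diagonal in both panels that contain replicate 3, where they sum to 4161 FPKM. They also differ between replicates 1 and 2, with sums of 24.5 and 147 FPKM.

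The widest differences between libraries at high levels were as follows. Of the 1226 genes, 60 differed by more than 2 on the log2 scale between their highest and lowest library, and 33 of these were highest in replicate 3, 18 in replicate 2 and 9 in replicate 1. The 10 with the largest spread were Ccl12, Ctss, Cxcl10, Cxcl13, Ifi27l2a, Ifitm3, Cd74, Fcer1g, C1qc and Ccl7, chemokine, interferon-induced, antigen presentation and microglial genes, all highest in replicate 3. Ccl12, a chemokine, was at 586 FPKM there and listed at 0 in replicates 1 and 2. Cxcl10, an interferon-induced chemokine, was at 502 FPKM there and listed at 0 in all 5 other libraries of the series. Ctss, a protease of microglia, was at 0, 22.4 and 1439 FPKM. B2m, the light chain of class I proteins, was at 49.1, 68.1 and 2285 FPKM. Genes at 10 FPKM or more in 1 Drd2 library and under 1 FPKM in the other 2 numbered 2, 18 and 116.

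At the other end, the 10 most even genes were Morn4, Ufc1, Hspa8, Arxes2, Dbnl, Hagh, Rtn3, Dnaja1, Tmem9b and Slc25a4. Morn4 was at 59.4, 59.5 and 59.4 FPKM. Hspa8, a constitutive chaperone, was at 715, 718 and 707 FPKM. Slc25a4, the mitochondrial ADP/ATP carrier, was at 832, 808 and 835 FPKM. Of 22 channel and receptor lists that had a member present in all 3 libraries, 11 were led by the same gene in each library. The number was 11 of 23, 16 of 22 and 17 of 22 without replicate 1, 2 or 3. Among the 11 leaders were Hcn3, Kcnip4, Kcnj9, Kcnk3, Cnih2, Grm2, Glrb, Drd2, Hrh3 and Oprl1.

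Set beside the PV libraries, few members of the repertoire stood out beyond the replicate spread. By limma on log2(FPKM + 1) over 11478 genes, 30 passed an adjusted p of 0.05 (0.261% of genes tested), 25 higher in Drd2 (0.218%) and 5 higher in PV (0.0436%). Of 185 tested members of the transmitter, channel and receptor lists, 2 passed, Gpr83 and Rxrg, both higher in Drd2. The PV libraries had 2.22, 5.37 and 2.94 FPKM of Gpr83 (limma adjusted p = 0.0316) and at most 0.142 FPKM of Rxrg (limma adjusted p = 0.0400). Among the markers and signalling genes, Calb1, Hpcal1, Necab2 and Gng4 passed in the same direction. By list, 2 of 5 tested markers, 3 of 18 calcium-binding genes (the same 2 markers among them) and 1 of 10 gamma subunits passed. None of 12 tested Rgs genes or 22 tested genes of D2 signalling did. Calb1 and Hpcal1 are markers chosen with such values known, so nothing is read from their passing. The calls higher in Drd2 rest on all 3 Drd2 libraries. Without replicate 1, 2 or 3 no gene passed as higher in Drd2 by limma, with 1019, 999 and 1178 genes in either direction at an unadjusted p under 0.05.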

How the data were processed

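Cells, RNA and libraries are as described above; per the labels' protocols, RNA was purified on RNeasy columns and sequenced from SMARTer mRNA libraries. The authors deposited FPKM values for 55414 mouse Ensembl genes in 6 libraries. The aligner STAR (no version) was used, and mm10, hg38 and GRCh38 were listed as builds, per the submitters' processing notes; quantifier, strand setting and annotation release were not given in the sources used here. In GENCODE M21, used for positions, biotypes and exon lengths, 94.1% of identifiers were found. Where a name had several rows, the row with the highest summed FPKM was used.

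FPKM times exon length gave whole reads within 0.01 for 97.9% to 98.8% of values of up to 20 reads, which gave the depths; limits from a count of 0 cover counting error only. None of 20 housekeeping genes was listed at 0. Levels were compared as log2(FPKM + 1). PV against Drd2 was fitted in R 4.3.3 with limma 3.58.1, using an intensity trend, 2-sided, Benjamini-Hochberg adjustment and a threshold of 0.05, on genes at 1 FPKM or more in at least 3 of 6 libraries; differences are PV minus Drd2. On simulated data for this comparison (11478 genes, 200 changed) it recovered 73.7%, 87.5%, 100% and 100% of log2 changes of 2, 3, 4 and 5. Marker sums were compared by an exact permutation test.

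The members, gene lists and named genes were chosen with earlier results of these data known. Named are the 5 markers; the 15 most abundant genes; per list up to 6 highest members present in all 3 libraries and the 2 with the largest range; transmitter-defining genes and dopamine receptors; the 10 most and 10 least even genes at a mean of 50 FPKM or more; and list members past the limma threshold. Others, such as Gria3, Kcna2, B2m and the genes of 1 library, were picked after their values were seen. Some genes the rule names are not reported here. Python 3.11.15 (pandas 2.3.3, scipy 1.17.1, matplotlib 3.10.9) was used.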

Additional observations from a re-analysis of the deposited data

How the results depend on the processing

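Counts moved with the level for presence: at 5 FPKM, 4725 genes and 76 repertoire members reached it in all 3 Drd2 libraries, against 8423 and 142 at 1 FPKM. Leaving out 1 Drd2 library gave 9129 to 9587 genes and 149 to 161 members, 73 to 81 shared top genes, and 11 to 17 lists with 1 leader. The mean pairwise r of 0.761 was 0.612 with a pseudocount of 0.1 FPKM, 0.851 with 5 FPKM, 0.883 with no filter and 0.861 over genes at 1 FPKM in all 3. It was 0.694 to 0.776 with 1 library left out, and 0.764 without the marker lists of other cell types, an alternative added after the data were seen. Limma called 4 genes with a pseudocount of 0.1 FPKM, 68 with 5 FPKM, 68 after quantile normalization, and 1 to 56 with 1 library left out (2, 3 and 1 without Drd2 replicates 1, 2 and 3, and 56 without PV replicate 6). With no filter it called 0 of 26063 genes above 0 in any library (1509 at an unadjusted p under 0.05); this was first run on all 55414 rows, where 105 were called but most variances were 0, and was changed after that count was seen. The causes of these shifts were not tested. After quantile normalization 46 calls were higher in Drd2 and 22 in PV. The median log2 difference of all genes was -0.28, -0.49 in TPM, -0.12 when scaled by median of ratios and 0.05 after quantile normalization.

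The microglial sum difference, PV minus Drd2, was -229 FPKM, and 37.6 with median-of-ratios scaling. That for neighbouring neurons was -86.7, and 59.6 with that scaling. With 1 library left out they ran from -939 to 1129 and from -411 to 502, the vascular difference from -1.19 to 4.72 and the ependymal one from -0.762 to 5.75. Without Drd2 replicate 3 they were 1129 and 502. The levels of 288 named genes stayed within 1 SD under median-of-ratios scaling. Of these, 281 moved by more when rescaled to TPM, which multiplies every value of a library by 1 factor. All 288 also stayed within 1 SD with each Drd2 library left out, but that outcome was fixed in advance. With 3 values, leaving out 1 cannot move the mean by 1 SD, so nothing is read from it. No paired analysis was possible because the 2 groups share no replicate numbers. With 3 libraries a group, the exact permutation test cannot go below p = 0.1.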
